A study of Homo sapiens with 35 samples.

Results

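The core replication-dependent histone genes were taken as every row of the gene count table whose symbol is H2AC, H2BC, H3C or H4C followed by a number, which gave 60 of 60665 genes. They comprised 16 H2A, 17 H2B, 13 H3 and 14 H4 genes, of which 49 lie in the cluster on chromosome 6 and 11 in the cluster on chromosome 1. They were counted in 35 total RNA libraries of HEK293T cells, a transformed human embryonic kidney line, each transfected at 5 nM for 72 h with a siPOOL, a mixture of many siRNAs against 1 gene. INTS13 was depleted as a part of Integrator, which cleaves nascent RNA at snRNA and other genes, and so were transcription factors that bind Integrator. The study asked how Integrator and these partners act together, and whether they take part in the response to glucose starvation.

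Groups were compared within the sets that the replicate numbers and labels define. Set 1 held 2 libraries each of cells depleted of TSPYL2, ZEB1, ZNF608, ZNF609 or ZNF687 and 3 control siPOOL libraries. These controls are numbered 1, 2a and 2b in the descriptions, which is used here, but 1a, 1b and 2 in the titles. Set 2 held glucose-starved cells (glucose-free medium for 24 h) with the INTS13 siPOOL (n = 2), the HDGF siPOOL (n = 2) or the control siPOOL (n = 4), unstarved cells depleted of INTS13, HDGF or ZNF655 (n = 2 each) and 4 unstarved control siPOOL libraries (3a, 3b, 4a and 4b). No label names the control of ZNF655, and the set 2 controls were used. Set 3 held 2 ZMYND8-depleted libraries and 2 controls labelled for them. Every group is 1 cell line under transient depletion, so each comparison is between pools of transfected cells. No label says whether replicates were separate cultures, and p-values measure only the spread between these libraries.

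Replication-dependent histone mRNAs supply the H2A, H2B, H3 and H4 proteins that package newly copied DNA, and their level rises and falls with S phase. They are the metazoan mRNAs that normally carry no poly(A) tail. Their 3′ ends instead form a short stem-loop that is bound by SLBP and made by cleavage with the U7 snRNP and a shared set of cleavage factors, and the mRNAs are degraded when DNA synthesis stops. Some of these genes also give polyadenylated transcripts that run past the stem-loop. Ribosomal RNA depletion without poly(A) selection, which was used here, keeps both kinds.

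Total counts ran from about 16766700 to 50790300 per library (median 25622500). Of the listed HEK293T markers, VIM lay between 317 and 699 CPM (read counts scaled to library size by TMM). CDH2 lay at 67.6 to 116, NEFL at 39.2 to 112, KRT18 at 37.1 to 95.1 and NEFM at 7.19 to 51.7 CPM. KRT8 was lower at 3.13 to 19.0 CPM, and PAX2, a kidney marker, was low at 0.317 to 1.86 CPM. Of the markers of other cells, PTPRC (blood) had at most 1 count in any library, PECAM1 (endothelium) 4 and ALB (liver) 7. The fibroblast marker COL1A1 was detected, at 1.23 to 8.70 CPM. Each of the 9 siPOOL targets was lower in its own depletion, by 0.84 to 3.58 on the log2 scale (edgeR quasi-likelihood test, highest Benjamini-Hochberg adjusted p = 0.0114). In set 1 the libraries numbered 1 stood apart from those numbered 2 in all 6 groups, which touches every histone value of that set and is given with those results.

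The 60 genes together took between 0.734% and 2.42% of all counts (median 1.12%). Counts were uneven: 27 genes exceeded a mean of 100 CPM over the 35 libraries and 23 stayed under 1 CPM, including H3C4 and H4C7, with 0 counts in every library. For members that share most of their sequence with other genes, such as H3C4, low counts do not show low expression, as the shared sequence given below limits read assignment. The filter on low counts kept 40 genes for testing (11 H2A, 14 H2B, 7 H3 and 8 H4; 5 on chromosome 1 and 35 on chromosome 6) and left out 20. By class, H2B genes held 34.2% of the summed mean CPM, H2A genes 24.6%, H4 genes 23.0% and H3 genes 18.2%, and the chromosome 1 cluster held 12.5%.

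The class leaders were H3C2 on chromosome 6 at a mean of 1066 CPM (range 562 to 2869), H4C3 at 845 CPM (482 to 2312), H2AC11 at 789 CPM (475 to 2180) and H2BC12 at 755 CPM (493 to 1391). On chromosome 1 the highest gene was H2AC20 at 480 CPM (272 to 1082). Per kilobase of annotated exon, H4C3 stood at 2087 and H3C2 at 2086 CPM per kb, followed by H2BC12 at 1525 and H2AC12 at 1318. H2AC11, whose annotated exons span 2250 bases, stood at 351 CPM per kb. These values depend on the gene models, because bases past the stem-loop count in the length, 1761 of them in H2AC11. They therefore do not rank genes with long models against genes with short ones. Neighbours differed by orders of magnitude: H2BC12 and H2AC12 were among the most abundant, whereas H4C9, which lies between H2AC11 and H2BC12 on chromosome 6, reached 0.363 CPM per kb.

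**Figure D1:**
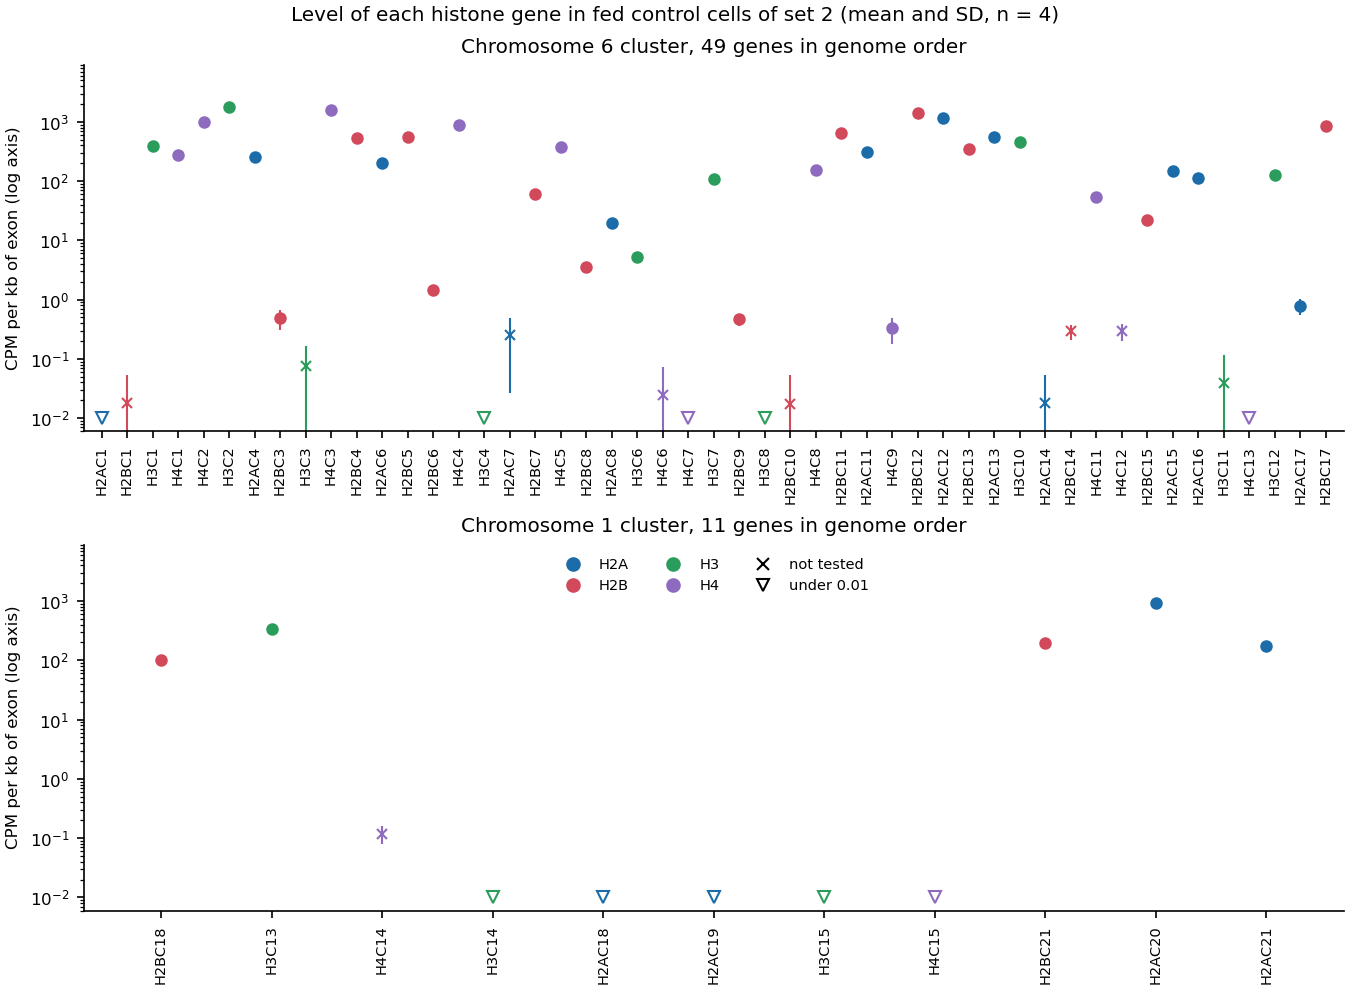
Mean level of each of the 60 genes in unstarved control cells of set 2, in CPM per kilobase of exon on a log axis, with genes in genome order along each cluster and coloured by class; bars are the SD of 4 libraries and lower bars that would reach 0 are cut. Filled circles are the 40 tested genes, crosses the untested ones, and open triangles mark genes under 0.01. Genes with high and with very low counts lie side by side in both clusters. The untested genes on chromosome 1 share all or nearly all of their sequence with other genes, so their low counts do not show low expression.

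Several members share sequence, which limits how reads can be assigned. Of the 58 members present in GENCODE release 29, 35 had no 100-base window (the read length) in common with any other gene, 26 of them tested. H3C14, H3C15, H4C14, H4C15, H2AC18, H4C12 and H3C4 had no window of their own, and all were untested. Among tested genes, H2AC15 had none because its exon lies within H2BC15 on the opposite strand, H2AC17 had 15.99% and H3C12 41.6% (shared with each other on the same strand), H4C11 had 22.3% (shared with H4C12), H2AC13 42.3% (shared with H2AC14), H3C13 48.7% (shared with H3C14 and H3C15), H2BC12 71.6% and H2AC20 82.8%. The library kit marks strand, but the strand setting of the counting is not given in the sources used here. Values of these genes are uncertain to that extent. The median share of windows of their own was 19.1% in untested members and 100% in tested ones. Low counts of members with few such windows, and the share of the chromosome 1 cluster, are therefore also uncertain.

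The stem-loop that defines this gene family was read from the annotated transcripts as 16 bases (a 6-base stem, a 4-base loop and the returning stem) and was found in 28 of the 58 members. An annotated transcript that ends before the stem-loop, or within 5 bases after it, could not show it. The longest transcript of H3C1 had 411 bases and that of H4C1 312 bases, and neither gave a match. The members without a match therefore cannot be said to lack a stem-loop. The stem-loops found took 6 forms, shown as DNA with 5 flanking bases on each side, the stem-loop in capitals, and 1 member for each form. The first form was shared by 15 members of the H2A, H2B and H3 classes, the second by 4 H2B and H3 genes (H2BC4, H2BC5, H2BC7 and H3C8), the third by H4C2, H4C5, H4C8 and H4C11, and the fourth by H4C9, H4C14 and H4C15. H3C6 and H2AC11 each had a form of their own.
H2AC8: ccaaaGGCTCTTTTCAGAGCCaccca
H2BC7: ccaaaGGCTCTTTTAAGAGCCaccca
H4C2: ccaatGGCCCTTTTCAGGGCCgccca
H4C9: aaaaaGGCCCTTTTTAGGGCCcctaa
H3C6: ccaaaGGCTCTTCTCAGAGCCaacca
H2AC11: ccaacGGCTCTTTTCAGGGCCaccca
On hg38 the capitals lie at chr6:26217417-26217432 (plus strand) for H2AC8, chr6:26199968-26199983 (plus) for H2BC7, chr6:26026901-26026916 (minus) for H4C2, chr6:27139654-27139669 (plus) for H4C9, chr6:26225596-26225611 (plus) for H3C6 and chr6:27133515-27133530 (plus) for H2AC11. The gene models run on past the stem-loop by 51 bases in H2AC8 and 86 bases in H4C2, against 732 bases in H2BC7, 1059 bases in H2BC8, 1761 bases in H2AC11 and 1862 bases in H3C6, so the counts of the longer models can include transcripts that run past the stem-loop.

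Glucose starvation lowered many histone mRNAs in control siPOOL cells, and H3 was the class with the largest fraction of its tested members called. With 4 starved and 4 unstarved libraries, 16 of the 40 tested members fell and 1 rose (edgeR, adjusted p under 0.05), where 8.05% of all 19275 genes tested fell and 8.77% rose. The median log2 fold change of the members was -0.40 and 36 of 40 were negative. All members together made up 0.797%, 0.868%, 0.786% and 0.946% of counts in starved cells, against 1.21%, 1.12%, 1.00% and 1.08% in unstarved cells, with no overlap between the groups. The share of counts from 17 S phase genes differed far less, at a range of 0.488% to 0.497% in starved and 0.485% to 0.495% in unstarved cells. The share of ribosomal protein genes was 7.41% to 7.88% in starved and 6.13% to 6.73% in unstarved cells, and its part in the histone values was not tested. Fewer cells in S phase and less histone RNA per cell cannot be told apart in bulk RNA.

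The divergent neighbours H2BC8 and H2AC8, a pair that encodes both partners of the H2A-H2B dimer, fell most. H2BC8 had 0.768, 1.95, 1.53 and 1.96 CPM in starved cells, against 5.74, 4.86, 4.69 and 6.13 CPM in unstarved cells. H2AC8 had 3.79, 2.71, 3.40 and 3.69 CPM in starved cells, against 11.8, 9.45, 8.12 and 10.2 CPM in unstarved cells. Every starved library lay below every unstarved one for both genes, which the rule for naming genes required and which adds no support. The log2 fold changes by edgeR were -1.78 ± 0.24 (SE, adjusted p = 1.05e-05) for H2BC8 and -1.54 ± 0.22 (adjusted p = 2.13e-05) for H2AC8. Both are weakly expressed, with as few as 16 reads of H2BC8 in a library.

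Among H3 genes, which supply the H3.1 and H3.2 proteins, 5 of 7 tested members fell and the class median was -0.86. H3C1 had 76.1, 88.5, 81.0 and 94.8 CPM in starved cells, against 215, 202, 190 and 194 CPM in unstarved cells. H3C13, the only tested H3 gene of the chromosome 1 cluster, had 66.7, 80.3, 72.2 and 80.7 CPM in starved cells, against 170, 162, 166 and 141 CPM in unstarved cells. Starved cells thus kept 42.5% of the H3C1 and 46.9% of the H3C13 level, with log2 fold changes of -1.23 ± 0.15 (adjusted p = 3.21e-06) and -1.09 ± 0.13 (adjusted p = 3.05e-06). H3C7 fell by 1.14 ± 0.16 on the log2 scale and H3C12 by 0.86 ± 0.19, with starved libraries at 21.5 to 27.4 CPM and 56.0 to 68.0 CPM against 53.8 to 54.9 CPM and 103 to 120 CPM in unstarved cells. The most abundant H3 gene, H3C2, was not called: it had 664, 691, 634 and 723 CPM in starved cells, against 1019, 913, 847 and 835 CPM in unstarved cells (log2 fold change -0.41 ± 0.22, adjusted p = 0.231), although its libraries did not overlap.

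H2A genes fell in 4 of 11 cases (class median -0.43). H2AC4 had 49.9, 56.0, 47.4 and 56.9 CPM in starved cells, against 156, 129, 131 and 120 CPM in unstarved cells (log2 fold change -1.35 ± 0.19, adjusted p = 1.93e-05). H4 genes fell in 2 of 8 cases (class median -0.27), led by H4C2 with 206, 214, 183 and 246 CPM in starved cells, against 437, 458, 386 and 451 CPM in unstarved cells (-1.03 ± 0.23, adjusted p = 0.00279). The leading members of these classes were not called, with log2 fold changes of -0.35 ± 0.22 for H2AC11 and -0.28 ± 0.27 for H4C3.

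H2B genes moved least as a class (median -0.18), with 5 of 14 lower and 1 higher. H2BC12, the most abundant H2B gene, had 688, 673, 624 and 721 CPM in starved cells, against 768, 722, 597 and 662 CPM in unstarved cells, and the groups overlapped (log2 fold change -0.02 ± 0.14, adjusted p = 0.946). H2BC15 was the 1 member that was higher, at 158, 157, 156 and 177 CPM in starved cells, against 137, 122, 109 and 120 CPM in unstarved cells (0.41 ± 0.13, adjusted p = 0.0362). Its groups did not overlap, yet the call was lost without any 1 of control libraries 3b, 4a or 4b or of the 4 starved libraries (adjusted p 0.0303 to 0.114 over the 8 refits). The H2BC15 model runs on for 26693 bases past its first stem-loop and ends 5 bases past a second, and H2AC16, which lies within it on the same strand, fell by 0.79 ± 0.21. As a share of all histone counts, H2B genes held 37.8% to 39.9% in starved cells, against 34.6% to 35.4% in unstarved cells, and H3 genes 15.4% to 16.2% in starved cells, against 17.3% to 19.6% in unstarved cells (4 libraries each), with no overlap between the groups in either class.

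**Figure D2:**
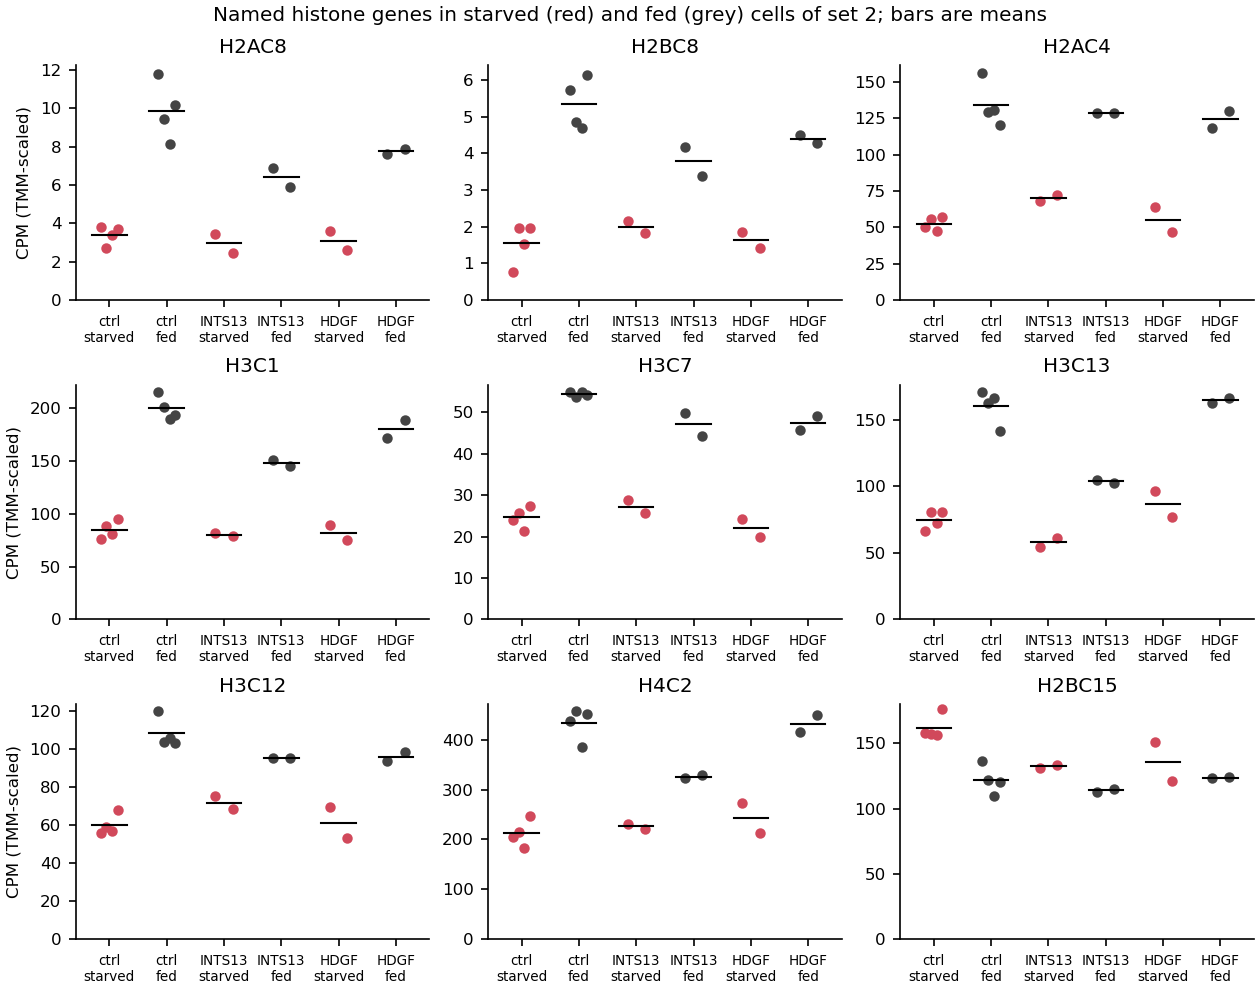
TMM-scaled CPM in every set 2 library with and without starvation for 9 genes called in starved control cells; red points are starved libraries, grey points unstarved ones, black bars group means, and each panel starts at 0. The 8 genes that fell lie lower in starved cells under all 3 siPOOLs, and H2BC15 lies higher in starved control cells (unstarved cells are marked as fed).

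By cluster, 1 of 5 tested members on chromosome 1 (H3C13) and 15 of 35 on chromosome 6 fell, with medians of -0.20 and -0.41. The chromosome 1 members made up 13.8% to 15.1% of histone counts in starved cells, against 13.05% to 13.99% in unstarved cells, and the ranges overlapped. With 5 tested members, the chromosome 1 figure turns on single genes. Members with short gene models fell more often: 11 of 22 with at most 600 bases of exon (median -0.48) and 5 of 18 with longer models (median -0.23). The limit of 600 bases was chosen after the values were seen, and whether transcripts past the stem-loop account for the difference was not tested.

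The spread of set 1 enters this fit and widens its errors. With set 2 fitted alone, 27 members fell and 1 rose, beside 17.7% of all 18665 genes tested that fell and 17.0% that rose, and all 17 calls above were kept. By class, the fit of set 2 alone called 8 of 11 H2A, 7 of 14 H2B, 6 of 7 H3 and 6 of 8 H4 genes lower. In the fit of all libraries, 12 of the 17 calls held in each of the 8 refits that left out 1 library, and the 5 that did not were H4C4, H2BC7, H2AC12, H3C10 and H2BC15. With the a and b libraries of each number summed into 1, 7 members fell, beside 2.17% of all genes.

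Starvation was also applied to INTS13-depleted and HDGF-depleted cells, with 2 starved and 2 unstarved libraries each that are shared with neither the controls nor each other. In INTS13-depleted cells H3C13 and H3C1 fell, 2 of 40 members beside 0.467% of all genes (median -0.20). H3C1 had 81.5 and 78.7 CPM in starved INTS13-depleted cells, against 151 and 146 CPM in unstarved ones (-0.89 ± 0.21, adjusted p = 0.0335). In HDGF-depleted cells 6 of 40 members fell, beside 1.45% of all genes (median -0.32), and these were H2BC8 (-1.41 ± 0.34), H2AC8 (-1.31 ± 0.32), H2AC4 (-1.16 ± 0.27), H3C1 (-1.14 ± 0.21), H3C7 (-1.10 ± 0.23) and H3C13 (-0.92 ± 0.19). All 6 had also fallen in starved control cells. Set 2 alone gave 13 members lower in INTS13-depleted cells (5.30% of all genes) and 21 lower in HDGF-depleted cells (8.28% of all genes). In the fit of all libraries no call was left in INTS13-depleted cells without any 1 of the 4 libraries, nor in HDGF-depleted cells without the starved library 4.

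The members kept much the same order in the 3 comparisons. Across the 40 members, the log2 fold change in control cells had a Pearson r of 0.924 (Spearman rho 0.890) with that in INTS13-depleted cells and 0.949 (0.938) with that in HDGF-depleted cells, and the values of the 2 depletions had 0.929 (0.937). The points are genes that share libraries and are not independent, so these are descriptions without a test. The sign was the same in 33, 36 and 33 of 40 members.

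**Figure D3:**
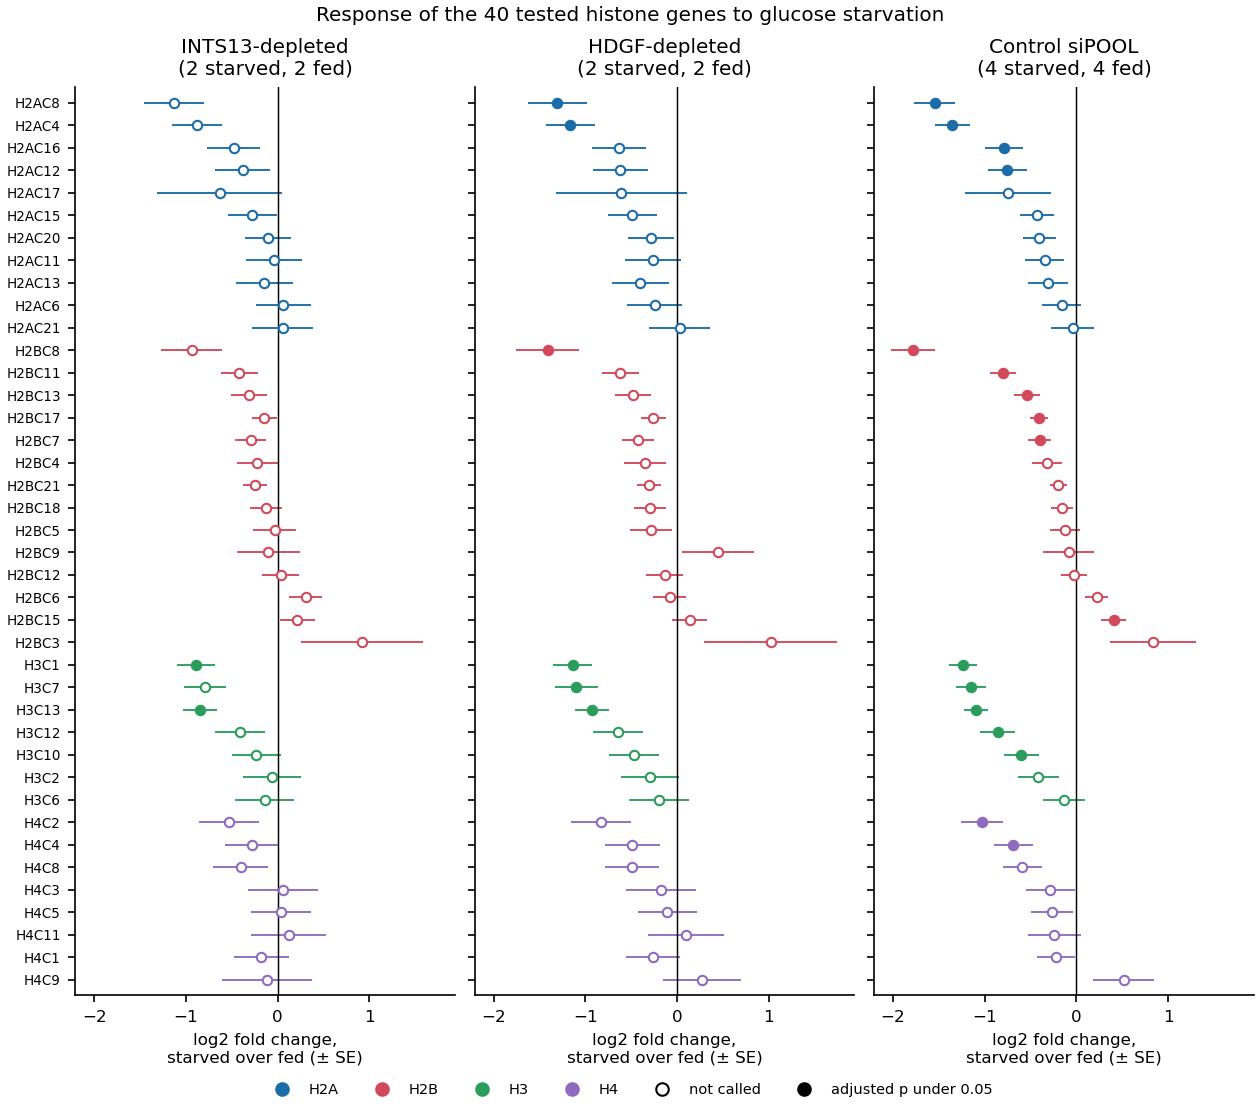
Log2 fold change of each of the 40 tested genes, starved over unstarved, in INTS13-depleted, HDGF-depleted and control siPOOL cells. Bars are a standard error derived from the edgeR F statistic, and filled points passed an adjusted p of 0.05. Rows are grouped by class and ordered by the value in control cells. The same 6 genes (H2AC8, H2BC8, H2AC4, H3C1, H3C7 and H3C13) lie furthest to the left in all 3 panels, and most H2B genes lie close to 0.

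The test of whether starvation acted differently in depleted and control cells called no member. For INTS13 the interaction had 0 calls among the 40 members (0 at an unadjusted p under 0.05 and 0 by DESeq2), beside 0.0156% of all genes, although 35 of 40 members were positive and the median was 0.24, the sign of a smaller difference between starved and unstarved cells after INTS13 depletion. The lowest p in that edgeR fit was that of H2BC8 (0.84 ± 0.42, adjusted p = 0.882). With set 2 alone H4C2 was called (0.51 ± 0.13, adjusted p = 0.0492; 1.11% of all genes were higher), and this call was lost when the replicate number was added as a block. H4C2 had 232 and 221 CPM in starved and 322 and 330 CPM in unstarved INTS13-depleted cells. For HDGF the interaction also had 0 calls (0 at an unadjusted p under 0.05, 0 by DESeq2), beside 0.00% of all genes, with a median of 0.11 that was -0.06 without starved HDGF library 3 and 0.26 without starved HDGF library 4.

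Many H2A and H2B genes share a divergent promoter, and the members were examined as such pairs. There were 10 pairs whose starts lie head to head within 500 bases, and both partners were tested in 7. In 1 pair, H2AC8 and H2BC8, both partners fell in starved control cells. In 4 pairs 1 partner was called and the other was not: H2AC12 fell by 0.75 ± 0.21 beside -0.02 ± 0.14 for H2BC12, H2BC11 by 0.80 ± 0.14 beside -0.35 ± 0.22 for H2AC11, H2BC13 by 0.54 ± 0.14 beside -0.31 ± 0.22 for H2AC13, and H2BC17 by 0.41 ± 0.10 beside -0.74 ± 0.47 for H2AC17, which had at most 34 counts. H2AC13 and H2AC17 share much of their sequence with other members, as given above. No partner was called in the pairs H2AC20 and H2BC21 or H2AC6 and H2BC4. The difference between partners was not tested.

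Promoter windows from RefSeq (GRCh38.p14, 250 bases before to 50 after the start) were available for 55 of the 60 members. The TATA box was searched as TATAAA on the sense strand, the CCAAT box as CCAAT on both strands and the octamer as ATTTGCAT on both strands; none of these contains another. CCAAT occurred in all 43 H2A, H2B and H3 windows and in 3 of 12 H4 windows (25.0%), beside 34.6% of all 35116 promoters in the table. The octamer occurred in 25 of 32 H2A and H2B windows (78.1%) and in none of the 11 H3 or 12 H4 windows, beside 1.77% of all promoters. Starts of divergent H2A and H2B partners lie 215 to 283 bases apart, so their windows overlap. A match searched on both strands can therefore be counted for both partners. For the octamer, H2AC8 had it at -192 on the other strand and H2BC8 at -48 on its own. These windows are thus not separate octamers, and a match need not belong to the H2A gene. TATAAA occurred in 33 of 55 members, beside 7.33% of all promoters. The windows of H2AC8 and H3C1, from genes that fell steeply, and of H2BC12, which was not called, are shown with these letters in capitals, reading ATTGG and ATGCAAAT where the match is on the other strand.
H2AC8: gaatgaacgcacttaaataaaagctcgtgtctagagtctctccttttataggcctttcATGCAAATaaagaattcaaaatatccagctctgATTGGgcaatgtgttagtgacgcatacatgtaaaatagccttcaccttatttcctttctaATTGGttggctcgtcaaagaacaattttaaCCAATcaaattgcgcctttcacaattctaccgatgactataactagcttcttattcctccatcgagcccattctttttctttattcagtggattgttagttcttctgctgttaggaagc
H3C1: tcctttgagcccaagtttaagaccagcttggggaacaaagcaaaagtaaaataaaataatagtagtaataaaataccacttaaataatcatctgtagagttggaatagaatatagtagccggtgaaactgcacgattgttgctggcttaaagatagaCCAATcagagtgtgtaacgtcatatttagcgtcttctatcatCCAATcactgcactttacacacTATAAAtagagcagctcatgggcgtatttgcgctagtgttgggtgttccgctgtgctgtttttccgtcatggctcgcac
H2BC12: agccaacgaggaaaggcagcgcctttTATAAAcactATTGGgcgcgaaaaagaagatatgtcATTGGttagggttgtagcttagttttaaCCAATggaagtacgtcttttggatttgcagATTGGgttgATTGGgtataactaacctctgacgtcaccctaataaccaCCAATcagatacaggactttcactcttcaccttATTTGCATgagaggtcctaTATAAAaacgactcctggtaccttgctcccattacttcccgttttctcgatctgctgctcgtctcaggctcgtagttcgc
They lie at chr6:26216671-26216970 (plus strand), chr6:26020201-26020500 (plus) and chr6:27146806-27147105 (minus). H2AC8 and H2BC8 start 283 bases apart and H2AC12 and H2BC12 start 251 bases apart. CCAAT boxes are present in all 3 windows, an octamer in those of H2AC8 and H2BC12, and TATAAA close to the start in those of H3C1 and H2BC12. A match is only a run of letters, and its absence says nothing about factor binding.

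The 5 lists of related genes had medians closer to 0 than the members under starvation. Of 16 tested genes of histone pre-mRNA processing and transcription, 2 fell: SLBP, the stem-loop binding protein, to 111 ± 3.22 CPM in starved cells, against 135 ± 5.00 CPM in unstarved cells (SD, n = 4 each; -0.29 ± 0.08, adjusted p = 0.0147), and CSTF2, a cleavage stimulation factor subunit (-0.18 ± 0.05, adjusted p = 0.0183). None of 9 histone mRNA decay genes was called (2 at an unadjusted p under 0.05). Among 13 histone chaperones, ASF1A (-0.46 ± 0.09), SUPT16H (-0.34 ± 0.08) and DAXX (-0.33 ± 0.09) fell and NAP1L1 (0.17 ± 0.06) rose. Of 12 tested histone genes outside the replication-dependent core list, H2AW (-0.54 ± 0.15) and H4-16 (-0.50 ± 0.17) fell and H2AZ2 (0.18 ± 0.05) rose. Of 17 S phase genes, CCNE1, which encodes cyclin E1, fell (-0.43 ± 0.08, adjusted p = 0.000631). List medians lay between -0.07 and -0.11, beside -0.40 for the members.

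INTS13 depletion in unstarved cells lowered 3 of the 40 members, beside 6.23% of all genes that fell, so the count of members was close to the background. H3C13 had 105 and 103 CPM in INTS13-depleted cells, against 170, 162, 166 and 141 CPM in control cells (-0.63 ± 0.16, adjusted p = 0.0114). H2BC21, the H2B gene next to H2AC20 on chromosome 1, had 325 and 331 CPM in INTS13-depleted cells, against 482, 440, 377 and 417 CPM in control cells (-0.39 ± 0.11, adjusted p = 0.0229). H2AC15 had 42.5 and 41.2 CPM in INTS13-depleted cells, against 77.5, 75.0, 67.7 and 68.9 CPM in control cells (-0.79 ± 0.24, adjusted p = 0.0257), with the caveat of its overlap with H2BC15, which had 113 and 115 CPM in INTS13-depleted cells and 109 to 137 CPM in control cells. None of these 3 genes overlapped between the groups, but they had been called from the same values, so this adds no support. The members as a whole had a median of -0.32 and 35 of 40 were negative, while the median of all genes was 0.01.

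Medians were below 0 in every class and in both clusters, at -0.39 for H2A, -0.24 for H2B, -0.21 for H3 and -0.41 for H4, and -0.39 for chromosome 1 and -0.29 for chromosome 6. All members made up 0.928% and 0.917% of counts in INTS13-depleted cells, against 1.00% to 1.21% in control cells. H2BC9 (0.64) and H3C6 (0.35) were the most positive members and were not called. With set 2 alone, 22 members fell and 1 rose, beside 16.3% of all genes that fell and 13.8% that rose, and the 3 calls were kept. With either INTS13 library left out none of the 3 was called, and without control library 3a or 3b H3C13 alone was. With the a and b libraries summed, 0 were called.

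Among the related genes, INTS13 depletion was accompanied by lower SLBP, at 98.7 ± 1.63 CPM in INTS13-depleted (n = 2) and 135 ± 5.00 CPM in control cells (n = 4) (SD; -0.45 ± 0.10, adjusted p = 0.00339). NCBP2, the smaller cap-binding subunit (-0.42 ± 0.07), and CSTF2 (-0.24 ± 0.07) also fell, whereas LSM11, a U7 snRNP protein (0.38 ± 0.08), and CPSF2, which encodes CPSF100 (0.27 ± 0.07), rose; 5 of 16 were called in all. DCP2, the decapping enzyme, fell (-0.81 ± 0.10), the 1 of 9 decay genes called. The chaperones SUPT16H (-0.37 ± 0.10) and NAP1L4 (-0.36 ± 0.10) fell, 2 of 13. H2AX (-0.84 ± 0.17), H4-16 (-0.68 ± 0.21), CENPA (-0.42 ± 0.11) and H2BU1 (-0.36 ± 0.12) fell, 4 of 12 tested. Of 17 S phase genes 5 fell, among them CDC6 (-0.44 ± 0.10), MCM7 (-0.39 ± 0.08), MCM4 (-0.37 ± 0.09) and MCM3 (-0.33 ± 0.08), and CCNE1 (0.34 ± 0.10) and E2F1 (0.24 ± 0.08) rose. Whether these changes bear on the histone mRNAs was not tested.

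In starved cells, INTS13 depletion lowered H2BC21 alone among the members: it had 267 and 287 CPM in starved INTS13-depleted cells, against 370, 371, 354 and 403 CPM in starved control cells (-0.43 ± 0.11, adjusted p = 0.0285). That is 1 of 40 members beside 1.54% of all genes that fell, with a member median of -0.08. Without either starved INTS13 library, or without starved control 3a, 3b or 4b, it was not called. With set 2 alone 5 members fell (H2AC15, H2BC21, H2BC5, H3C13 and H2BC15; 7.99% of all genes fell) and 4 rose (H2AC4, H3C6, H3C12 and H2BC7; 8.34% of all genes rose), both counts of members close to the background.

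The other depletions of sets 2 and 3 called no member in the fit of all libraries. HDGF depletion gave 0 calls (2 at an unadjusted p under 0.05, 0 by DESeq2; 4.49% of all genes called in either direction) with a median of -0.14, and HDGF depletion in starved cells 0 (0 unadjusted, 0 by DESeq2; 0.659%) with a median of -0.05, which was -0.24 without starved HDGF library 3 and 0.09 without starved HDGF library 4. Set 2 alone called H2AC16, H2BC13, H4C5 and H2BC17 lower after HDGF depletion, 4 of 40 beside 9.13% of all genes. ZNF655 depletion gave 0 calls (2 unadjusted, 0 by DESeq2; 11.5%) with a median of -0.23 and 35 of 40 negative, and set 2 alone called 15 members lower, beside 16.0% of all genes. H3C2 had 647 and 694 CPM in ZNF655-depleted cells, against 835 to 1019 CPM in control cells. SLBP (-0.41 ± 0.10) and CCNE1 (-0.70 ± 0.10) fell in ZNF655-depleted cells, and CCNE1 (-0.54 ± 0.10) and E2F1 (-0.54 ± 0.08) fell and LSM11 (0.33 ± 0.08) rose in HDGF-depleted cells. Against the controls labelled for ZMYND8, ZNF655 depletion had a median of -0.44, with 2 members lower and 1 higher, beside 9.11% of all genes called in either direction.

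ZMYND8 depletion gave 0 calls (2 unadjusted, 1 by DESeq2; 0.747% of all genes) and a median of -0.03, but some members that fell under starvation lay above their controls. H3C13 had 158 and 145 CPM in ZMYND8-depleted cells, against 89.9 and 93.3 CPM in their controls (0.73 ± 0.19, adjusted p = 0.061). The H3C13 mean of these controls, 91.6 CPM, was below that of the set 1 controls (127 CPM) and the unstarved set 2 controls (160 CPM). H2BC8 had 16.1 and 14.4 CPM in ZMYND8-depleted cells, against 7.43 and 8.81 CPM in their controls (0.92 ± 0.27, adjusted p = 0.129). The H2BC8 means of the same control groups were 8.12, 16.0 and 5.35 CPM. With set 3 fitted alone, where 38 members were tested, H2BC8, H3C13, H3C1, H2AC4 and H3C7 were called higher and H2AC13, H2BC15, H4C5 and H2BC5 lower, beside 4.82% of all genes higher and 4.59% lower; these genes are named because of that count and were chosen after their values were seen.

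**Figure D4:**
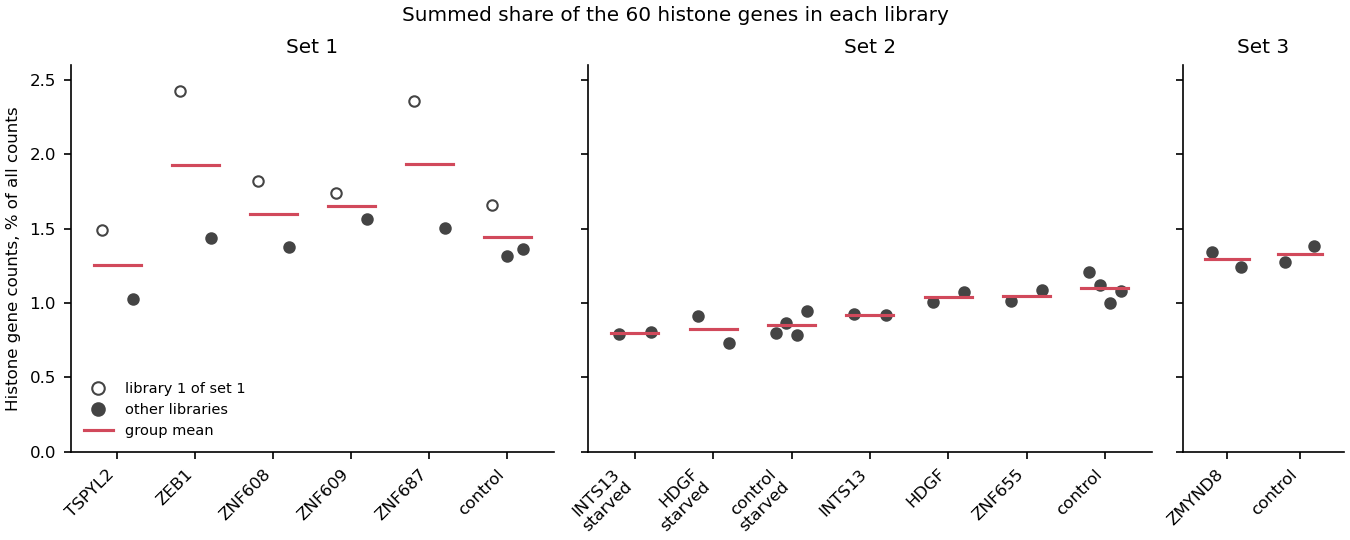
Share of all counts taken by the 60 genes in each library, with groups within each set ordered from depleted or starved to control; red bars are group means and open circles are the libraries numbered 1 of set 1. Starved libraries of set 2 lie between 0.734% and 0.946% and unstarved ones between 0.917% and 1.21%, and within every group of set 1 the library numbered 1 lies above the others.

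In set 1 the histone share separated the replicate numbers as much as the depletions. It was 2.42% in ZEB1 library 1 and 1.44% in library 2, 2.36% and 1.51% for ZNF687, 1.82% and 1.38% for ZNF608, 1.74% and 1.57% for ZNF609, 1.49% and 1.02% for TSPYL2, and 1.66% against 1.32% and 1.36% in controls 1, 2a and 2b. Over the 40 tested members the median log2 difference of number 1 over number 2 was 0.12 (ZNF609) to 1.05 (ZEB1), while that of all genes stayed within -0.02 and 0.01. Ribosomal protein genes moved along, at 15.8% of counts in ZEB1 library 1 and 8.70% in library 2. The make-up differed too: H2B genes held 28.2% to 33.0% of histone counts in the 6 libraries numbered 1 and 34.5% to 37.6% in the 7 numbered 2, and H4 genes 23.1% to 25.8% and 20.4% to 22.5%. What sets these libraries apart was not tested.

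**Figure D5:**
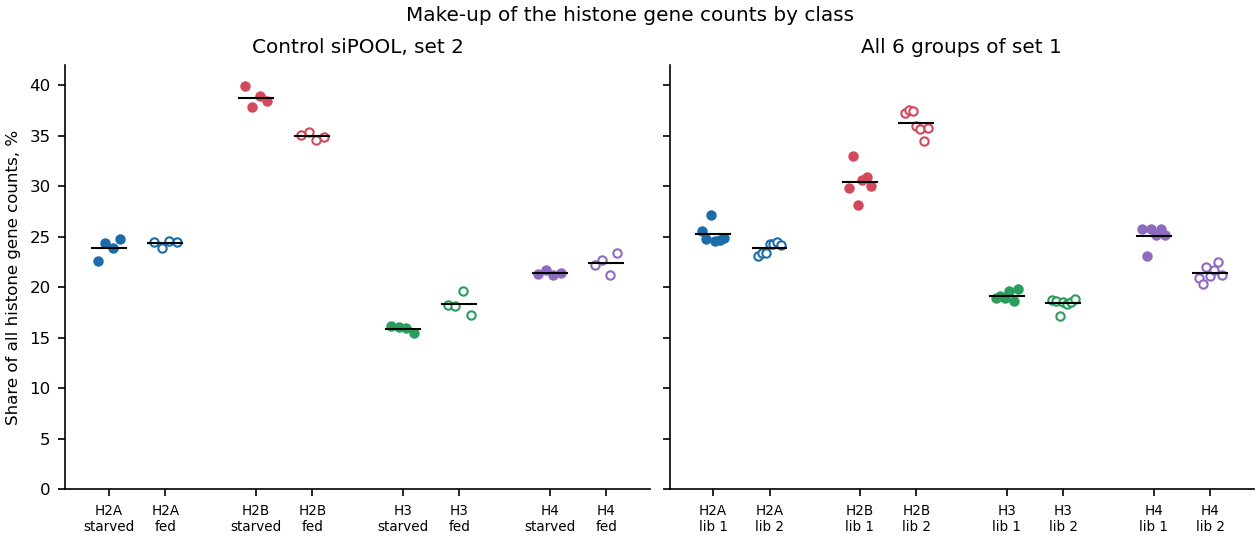
Share of all histone gene counts held by each class, by library: starved (filled) and unstarved (open) control cells of set 2 on the left, and libraries numbered 1 (filled) and 2 (open) of all 6 groups of set 1 on the right; black bars are means. H2B holds more and H3 less in starved cells (37.8% to 39.9% and 15.4% to 16.2%), and in set 1 the libraries numbered 1 hold less H2B and more H4.

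ZEB1 depletion raised 3 of 40 members, beside 1.78% of all genes that rose, and all were H3 genes. H3C13 had 288 and 173 CPM in ZEB1-depleted cells, against 146, 123 and 111 CPM in control cells (0.86 ± 0.17, adjusted p = 0.00295), and its groups did not overlap. H3C1 had 550 and 264 CPM in ZEB1-depleted cells, against 294, 223 and 216 CPM in control cells (0.74 ± 0.19, adjusted p = 0.0274), and H3C7 244 and 118 CPM against 131, 100 and 103 CPM (0.69 ± 0.20, adjusted p = 0.0481); the ranges of both overlap. The median was 0.59, with 39 of 40 positive, but it was -0.04 with no call without ZEB1 library 1, 1.05 with 35 calls without library 2 (18.6% of all genes rose), and 0.81 with 21 calls without control 1 (12.7% of all genes rose). Without control 2a or 2b H3C13 alone was called. The numbers pair the libraries of set 1, and with the number as a block 16 members rose (7.42% of all genes) with a median of 0.37. With the controls numbered as in the titles this block gave 27 (11.5% of all genes) and a median of 0.60. With set 1 fitted alone 0 were called without a block and 2 with it (0.777% of all genes), 1 of them among the 3 above. H2BC8 (0.15) and H2AC8 (0.27), the members most responsive to starvation, were not called.

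ZNF608 depletion raised H3C13 alone, 1 of 40 beside 1.08% of all genes that rose: it had 216 and 195 CPM in ZNF608-depleted cells, against 146, 123 and 111 CPM in control cells (0.69 ± 0.17, adjusted p = 0.0187). The call was lost without either ZNF608 library and without control 2a or 2b. The median over the members was 0.12, and it was -0.13 without ZNF608 library 1 and 0.35 without library 2. ZNF687 depletion gave 0 calls (20 at an unadjusted p under 0.05, 1 by DESeq2), beside 0.254% of all genes called at an adjusted p under 0.05. That share is no background for the unadjusted count, whose share over all genes is not given here. All 40 members were positive, with a median of 0.50 that was 0.05 without ZNF687 library 1 and 0.83 without library 2. ZNF609 depletion gave 0 calls (1 unadjusted, 0 by DESeq2; 0.571%) and a median of 0.16, which was 0.06 to 0.35 over the refits that left out 1 library, lowest without control 2a and highest without control 1.

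TSPYL2 depletion gave 0 calls (10 unadjusted, 0 by DESeq2), beside 2.22% of all genes called at an adjusted p under 0.05, which is no background for the unadjusted count. Of the 40 members 38 were negative, and the median was -0.37. With the replicate number as a block 25 members were lower, beside 10.5% of all genes, and the median was -0.45, but with the controls numbered as in the titles the block gave 2 lower, beside 1.90% of all genes, and a median of -0.31; with set 1 alone none was called, with or without the block. H3C2 had 1327 and 718 CPM in TSPYL2-depleted cells, against 1802, 1151 and 1226 CPM in control cells, so that each TSPYL2 library lay below the control of the same number in the descriptions while the ranges overlapped. H2AC8 had 22.2 and 14.8 CPM in TSPYL2-depleted cells, against 29.4, 27.9 and 30.6 CPM in control cells (-0.66 ± 0.24, adjusted p = 0.148). The median was -0.65 without TSPYL2 library 1, -0.09 without library 2 and -0.18 without control 1.

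Among the related genes in set 1, DCP2 fell in ZEB1-depleted (-0.84 ± 0.10) and ZNF608-depleted cells (-0.40 ± 0.10), CCNE1 in TSPYL2-depleted (-0.39 ± 0.11) and ZNF609-depleted cells (-0.48 ± 0.11), and CPSF3, the endonuclease that cleaves histone pre-mRNA, in TSPYL2-depleted cells (-0.25 ± 0.07). E2F1 (0.34 ± 0.08) and SNRPD3 (0.27 ± 0.07) rose in ZNF608-depleted cells. No SLBP change was called in set 1. H3C13 was thus the most often called member, lower in 3 starvation comparisons and after INTS13 depletion and higher after ZEB1 and ZNF608 depletion. The comparisons of INTS13 depletion and of starvation in control cells share the 4 set 2 controls, and those of ZEB1 and ZNF608 share the 3 set 1 controls. Reads of H3C14 and H3C15, its near-identical copies, cannot be told apart from its own in the windows they share.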

How the data were processed

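Total RNA of HEK293T cells was rRNA-depleted and sequenced as stranded single-end reads of 100 bases, per the labels' protocols. The deposited table holds the authors' raw counts per gene, whole numbers with no normalization, for 60665 genes in 35 libraries. FastQC, cutadapt and STAR on hg38 are listed in the submitters' processing notes; which tool counted reads, with which annotation and strand setting, is not given in the sources used here. Both the members and the lists of related genes were chosen with earlier results of these data known.

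Genes were filtered with filterByExpr (19275 kept), scaled by TMM and fitted with edgeR 4.0.16 in R 4.3.3 (limma 3.58.1) by the quasi-likelihood test over all 35 libraries with 15 group means, without a block (20 residual degrees of freedom). Calls have a Benjamini-Hochberg adjusted p under 0.05 over all genes tested. The SE of a log2 fold change was derived from the test, as its absolute value divided by the square root of the F statistic. Levels are CPM, counts scaled to the TMM library size. Totals of about 16766700 to 50790300 counts limit precision for members with few counts. Tests were tried on simulated counts first. Named genes were members called whose libraries do not overlap (up to 8 per direction and comparison, by fold change). The lack of overlap in these genes is part of that rule and adds no support to their calls. The highest member of each class and cluster, members called in an interaction and called genes of each list (up to 4 per direction) were also named. H2BC12 and H3C2 fall under the rule for the highest member of a class. Where they are given for contrast they were added after their values were seen. The same holds for H3C7 in ZEB1-depleted cells and other members given for contrast.

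Same-numbered libraries deviated together in set 1 (15 of 15 pairs of groups with r over 0.1, median 0.757, over 10244 genes), so the number pairs the libraries there. The titles and descriptions number the set 1 controls differently; all 5 pairs with the controls were over 0.1 under both (0.506 to 0.917 by the descriptions, 0.374 to 0.861 by the titles). Alternatives were DESeq2 1.42.0, its size factors, no filter, each set alone, a replicate block, summed a and b libraries, other controls for ZNF655, each library left out and, chosen after the data were seen, set 1 without the libraries numbered 1, the titles' numbering of the set 1 controls in the block, and total counts as library size. No pair of libraries of 1 group agreed within sampling noise. Stem-loops and shared windows come from GENCODE release 29 transcripts and promoters from RefSeq GRCh38.p14; 5 members had no promoter entry.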

Additional observations from a re-analysis of the deposited data

Results flagged for a closer look

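In groups of 4 libraries, 4 of 52 values had 1 library far from the other 3 (gap over range above Dixon's 95% critical value); chance flags about 1 in 20. In starved control cells, library 4b had 177 CPM of H2BC15, with the nearest library at 158 CPM. In unstarved control cells of set 2, library 3a had 120 CPM of H3C12, with the nearest at 106 CPM, and 13.99% of its histone counts came from chromosome 1, with the nearest at 13.2%. In the same group, library 3b had 23.9% of its histone counts from H2A genes, with the nearest at 24.5%.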

How the results depend on the processing

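Among called members that the naming rule covers, none changed sign under any alternative. The sign of the other called members, such as H3C1 and H3C7 after ZEB1 depletion, was not checked in this way. Member medians changed sign when 1 library was left out for ZEB1 (0.59, lowest -0.04), ZNF608 (0.12, lowest -0.13) and ZMYND8 depletion (-0.03, highest 0.01), HDGF depletion in starved cells (-0.05, highest 0.09) and the HDGF interaction (0.11, lowest -0.06). Among recomputed counts of called members 98 moved by over 1.5 times and 135 did not; the causes were not tested. DESeq2 size factors moved no count. With the DESeq2 Wald test 8 members were higher after ZEB1 depletion (3.23% of all genes) and 5 lower in starved INTS13-depleted cells (1.04%). It called 1 member higher after ZMYND8 depletion (0.804% of all genes) and 1 higher after ZNF687 depletion (0.228%).

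Without the filter on low counts 58 members and 39828 genes were tested. Shares of all genes called in the same direction are in brackets. Lower were 17 members after INTS13 (2.38%), 1 after HDGF (1.07%), 6 after ZNF655 (1.77%) and 10 after TSPYL2 depletion (0.367%). Higher were 28 after ZEB1 (3.08%), 4 after ZNF608 (0.462%) and 23 after ZNF687 depletion (0.339%). ZMYND8 and ZNF609 depletion had 2 higher each (0.193% and 0.176%). Lower were 7 in starved INTS13-depleted cells (0.284%) and 15 in starved HDGF-depleted cells (0.507%). INTS13 depletion in starved cells had 2 lower (0.567%) and 1 higher (0.962%).

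With the replicate block over all libraries 17 members were lower after INTS13 (11.6% of all genes), 5 after ZNF655 (10.3%) and 25 after TSPYL2 depletion (10.5%). Higher were 16 after ZEB1 (7.42% of all genes), 2 after ZMYND8 (1.56%) and 2 after ZNF687 depletion (0.363%). Lower were 5 in starved INTS13-depleted cells (2.19%) and 15 in starved HDGF-depleted cells (4.33%). INTS13 depletion in starved cells had 3 lower (4.56%). The block changed no other count by over 1.5 times. The set 1 controls were also numbered as in the titles, chosen after seeing the data. The replicate block then gave 2 members lower after TSPYL2 (1.90% of all genes) and 27 higher after ZEB1 depletion (11.5%). It gave 1 call after ZNF609 and 11 after ZNF687 depletion, whose shares of all genes are not given here. The numbers of set 2 did not pair libraries (6 of 21 pairs of groups over 0.1). Set 3 has only 1 pair of groups (r = 0.108), too few to say whether its numbers pair libraries.

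With each set alone and no block the calls were 23 after INTS13, 4 after HDGF, 15 after ZNF655 and 9 after ZMYND8 depletion. They were 0 after ZEB1 and 0 after ZNF608 depletion. Starvation of control, INTS13-depleted and HDGF-depleted cells had 28, 13 and 21. INTS13 depletion in starved cells had 9 and the INTS13 interaction 1. The directions of these calls and the shares of all genes are given with the results above. With each set alone and the block INTS13 depletion had 22, with 21 lower (16.0% of all genes) and 1 higher (13.6%). Lower were 4 after HDGF (8.82%) and 15 after ZNF655 depletion (15.5%). ZMYND8 depletion had 10, with 5 higher (7.27%) and 5 lower (6.95%). ZEB1 depletion had 2 higher (0.777%) and ZNF608 depletion 0. Starved control cells had 28, with 27 lower (17.5%) and 1 higher (16.8%). Lower were 12 in starved INTS13-depleted (5.00%) and 21 in starved HDGF-depleted cells (8.05%). INTS13 depletion in starved cells had 8, with 5 lower (7.62%) and 3 higher (7.98%). The INTS13 interaction had 0. With a and b libraries summed the calls were 0 after INTS13, 1 higher after ZEB1 (0.436% of all genes) and 0 after ZNF608 depletion. Starvation had 7 lower in control cells (2.17% of all genes) and 0 calls in INTS13-depleted cells. INTS13 depletion in starved cells had 0. Against the ZMYND8 controls ZNF655 had 3.

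Without the libraries numbered 1 of set 1, chosen after seeing the data, the depletions of set 1 have 1 library each, and no counts are given for them. The calls were 24 after INTS13, 4 after HDGF, 15 after ZNF655 and 5 after ZMYND8 depletion. Starvation of control, INTS13-depleted and HDGF-depleted cells had 28, 13 and 22. In starved cells there were 12 after INTS13 and 1 after HDGF depletion, and the INTS13 interaction had 2. The shares of all genes called under this setting are not given here, so these counts stand without a background.

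Leaving out 1 library at a time gave 0 to 3 calls after INTS13, 0 to 1 after ZNF655, 0 to 35 after ZEB1, 0 to 1 after ZNF608 and 0 to 2 after ZNF687 depletion, 12 to 16 for starvation of control, 0 for INTS13-depleted and 0 to 4 for HDGF-depleted cells, and 0 to 1 after INTS13 depletion in starved cells.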
